A study of Mus musculus with 65 samples.

Results

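The data described here are the medium contrast at 18 h with doxycycline in cells from old mice: 8 of the 65 libraries in the series, 4 labelled as differentiation medium and 4 labelled as neural stem cell (NSC) medium. Members were taken by their labels alone (age, treatment, labelled time and medium), so no measured value entered the choice. All 8 libraries are poly(A) RNA of primary neural stem cells from the subventricular zone of adult brain, of the genotype labelled iOSKM, from 4 mice of 25 months, and every mouse gave 1 library to each medium. Differentiation libraries are from cells whose medium was replaced, 18 h after plating, by medium without EGF and bFGF. NSC-medium libraries are from cells kept in Neurobasal-A with B27, EGF and bFGF on poly-D-lysine and laminin. Both media held doxycycline at 2 µg/ml, which acts through the transactivator M2rtTA on the inducible cassette for Oct4 (Pou5f1), Sox2, Klf4 and Myc that both groups carry. Animals 1 and 2 are labelled female and animals 3 and 4 male. How long after plating the NSC-medium libraries were taken, and when doxycycline was added relative to the change of medium, is not stated, so medium and time since plating cannot be told apart.

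Neural stem cells of the subventricular zone, in the wall of the lateral ventricle, give rise to neuroblasts, astrocytes and oligodendrocyte precursors. In culture, EGF and FGF bind receptor tyrosine kinases and signal through RAS and ERK, which raises cyclin D, drives cells past the G1 restriction point and induces feedback inhibitors of the same pathway. Withdrawal of these factors is a standard way to let such cells leave the cell cycle and enter glial and neuronal fates.

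The 8 libraries held 78.7 to 103.8 M counts (median 87.5 M), and no 2 were identical. In a principal component analysis of the 500 most variable genes, the first component (94.9% of the variance) set the media apart and the second (4.39%) set animals 1 and 2 apart from animals 3 and 4. Mitochondrial mRNA took 1.61% ± 0.213 of counts in differentiation libraries and 1.45% ± 0.255 in NSC-medium libraries (SD, n = 4 each; exact two-sided permutation test, p = 0.371, where the smallest p that 4 against 4 allows is 0.0286). Defining markers of neural stem cells were present: Sox2 was at 308 to 327 CPM (counts scaled to the size of the library) in differentiation libraries and 242 to 265 CPM in NSC-medium libraries, and the 10 stem cell markers summed to 6961 to 7484 CPM against 6058 to 6773 CPM. Of 8 microglia markers 5 were too low to test in either medium, and their sum was 5.69 to 6.93 CPM in differentiation libraries against 9.42 to 10.8 CPM. Endothelial markers summed to 8.48 to 11 CPM against 12.9 to 17.0 CPM, and fibroblast markers to 7.41 to 8.05 CPM against 2.03 to 2.95 CPM. Ependymal markers summed to 44.6 to 49.4 CPM against 29.7 to 34.4 CPM, a sum led by Foxj1, while 2 of the 6 tested were higher and 3 lower, with Dnah11 lowest (log2 -3.89). Mature neuron markers summed to 44.4 to 55.0 CPM against 18.7 to 24.0 CPM, almost all from Camk2a, with Slc17a6 and Sst at 0 in all 8 libraries. The part of other cells in the results was not tested, and in bulk RNA fewer cells of a type and less RNA per cell cannot be told apart.

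The medium changed most of the measured transcriptome. Of 17064 genes tested, 13901 (81.5%) passed an adjusted p under 0.05 in edgeR's quasi-likelihood test. Of all tested genes 41.4% (7073) were higher in differentiation libraries and 40% (6828) lower, and 17.6% (3000) rose and 14.5% (2477) fell at least 2-fold. The median log2 fold change (differentiation over NSC medium, used throughout) over all genes tested was 0.02. With so high a background, passing the test says little about any one gene, so sizes are given for all genes named below. The 4 values of one medium did not overlap those of the other in 77.1% of tested genes, and a test against a fold of 1.5 called 7330 genes.

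**Figure D1:**
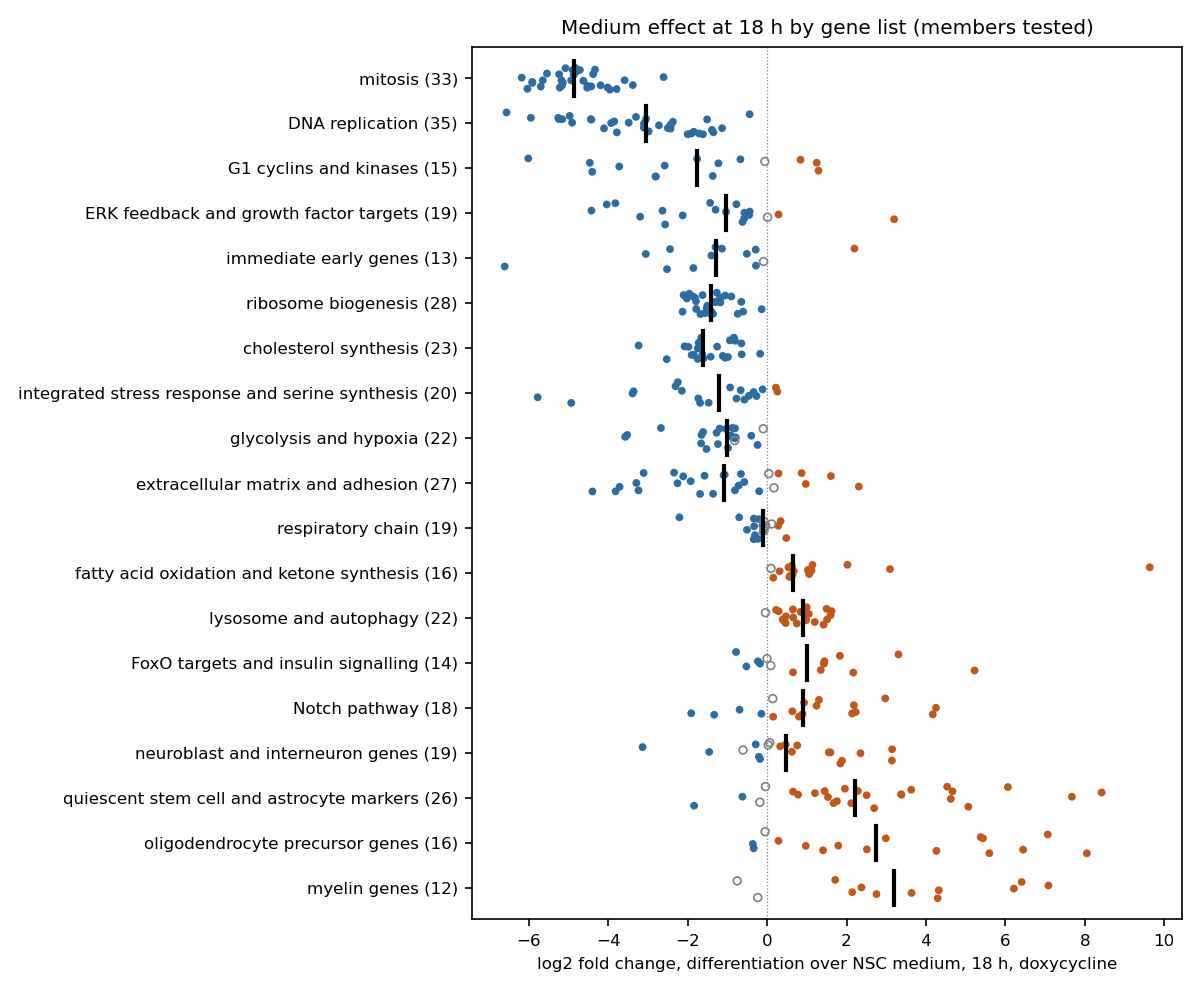
Log2 fold change (x axis, differentiation over NSC medium at 18 h with doxycycline) of the tested members of 19 gene lists (rows, number tested in brackets). Orange points passed higher, blue points passed lower, open points did not pass, and black bars are list medians; mitosis genes lie furthest left (median -4.87) and myelin genes have the highest median (3.20).

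Most genes that report ERK signalling fell. Of 19 feedback inhibitors and targets 16 fell, 10 of them at least 2-fold, 2 rose and 1 did not pass, with a median of -1.04. Dusp6, a phosphatase that inactivates ERK, had 32.7, 26.6, 27.1 and 24 CPM in the differentiation libraries of animals 1 to 4, against 386, 422, 379 and 376 CPM in their NSC-medium libraries. Every differentiation library lay far below every NSC-medium library (log2 -3.82 ± 0.0911 SE, adjusted p = 3.54e-11). Spry4, a feedback inhibitor of receptor tyrosine kinase signalling, had 11.8, 10.7, 9.89 and 9.66 CPM in differentiation libraries against 179, 182, 161 and 171 CPM in NSC-medium libraries (log2 -4.04 ± 0.0678). Its relative Spry1 fell by 3.20 and the phosphatase gene Dusp4 by 4.43 on the log2 scale. The ETS factor Etv5, an FGF target, averaged 140 ± 19.5 CPM against 613 ± 29.1 CPM (log2 -2.13). In the other direction, Il17rd (Sef), itself an inhibitor of FGF signalling, rose to a mean of 67.2 CPM in differentiation libraries, against 7.32 CPM in NSC-medium libraries (log2 3.20), and Etv1 rose by 0.29.

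Immediate early genes, which are induced within minutes of growth factor or synaptic stimulation, fell in 11 of 13 cases (median -1.30). Arc, known for its role at synapses, had 0.94, 0.948, 0.952 and 1.06 CPM in differentiation libraries, against 91, 107, 93.3 and 91.3 CPM in NSC-medium libraries. The groups were far apart and did not overlap (log2 -6.61 ± 0.0751, adjusted p = 3.82e-15). Egr1 fell to 48.5 CPM in differentiation libraries, against 278 CPM in NSC-medium libraries, Egr3 to 2.79 against 23.1 CPM and Jun to 40.7 against 222 CPM. Fos stood apart by its size of change, at 11.3 ± 1.12 CPM against 13.8 ± 1.04 CPM (log2 -0.29, adjusted p = 0.00535). Btg2, an antiproliferative gene often counted among the early genes, rose to 191 CPM in differentiation libraries, against 41.6 CPM in NSC-medium libraries (log2 2.2).

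Among 19 receptors and ligands of the EGF and FGF families, 11 rose and 7 fell. Egfr, the EGF receptor, had 568, 582, 486 and 575 CPM in differentiation libraries against 330, 359, 314 and 346 CPM in NSC-medium libraries (log2 0.71 ± 0.0623). Erbb4, a neuregulin receptor, rose to 146 CPM in differentiation libraries, against 8.73 CPM in NSC-medium libraries (log2 4.07), and Fgfr3 to 342 against 118 CPM (1.53). Of the ligands, Tgfa rose to 79.8 against 16.7 CPM (2.25), while Hbegf fell to 21.9 against 95.5 CPM (-2.13). Fgfr1 fell by 0.43. Both ligands named bind Egfr.

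Cell cycle genes fell together and by more than any other lists measured here by median. All 33 mitosis genes fell, all of them at least 2-fold, with a median of -4.87. All 35 DNA replication genes fell, 34 of them at least 2-fold, with a median of -3.05. Mki67, a marker of cycling cells, had 9.28, 8.27, 11.7 and 10.3 CPM in differentiation libraries against 319, 416, 293 and 412 CPM in NSC-medium libraries (log2 -5.18 ± 0.178, adjusted p = 3.5e-08). Its NSC-medium level was higher in animals 2 and 4 than in animals 1 and 3, whereas in differentiation libraries animals 1 and 3 were at or above the level of animal 2 and animal 3 was the highest. Aurkb, a kinase of the chromosomal passenger complex, had 0.497 to 0.842 CPM against 39.1 to 56.1 CPM (log2 -6.18). Other mitotic genes fell as far: the microtubule-binding Hmmr by 6.04, the mitotic kinase gene Plk1 by 5.92 and the mitotic cyclin gene Ccnb1 by 5.92 on the log2 scale. Sgo1, which protects centromeric cohesion, fell by 5.99 and Depdc1a by 6.39.

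In S phase genes, Cdc6, which loads the replicative helicase, had 0.269, 0.201, 0.443 and 0.335 CPM in differentiation libraries against 27.6, 33.7, 28.5 and 31.5 CPM in NSC-medium libraries (log2 -6.57 ± 0.16). Mcm5, a subunit of that helicase, had 3.79 to 4.71 CPM against 142 to 166 CPM (log2 -5.16). The groups were separated in all 4 animals for both genes. Replication factors Mcm10 and Cdt1 fell by 5.95 and 5.26, and the ribonucleotide reductase subunit gene Rrm2 by 5.25. Pclaf, a PCNA-binding factor, fell by 6.18, the exonuclease gene Exo1 by 6.10 and the cohesin acetyltransferase gene Esco2 by 6.05.

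The regulators upstream of S phase did not all move in the same direction. Ccnd1, the cyclin that couples growth factor signalling to G1, had 57.3, 42.6, 51.3 and 39.4 CPM in differentiation libraries, against 3360, 2862, 3195 and 2943 CPM in NSC-medium libraries. That is a 64.8-fold lower level with no overlap (log2 -6.02 ± 0.138, adjusted p = 2.93e-11). Ccnd2 fell to 156 ± 29.6 CPM in differentiation libraries, against 2057 ± 130 CPM in NSC-medium libraries (log2 -3.73). E2f1 and E2f2, activators of S phase genes, fell by 4.41 and 4.47. In the G1 list 11 of 15 genes fell and 3 rose: Cdk6 (1.29), the pocket protein gene Rbl2 (1.25) and Rb1 (0.84).

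Cdk inhibitors did not move as 1 group, with 2 of 7 higher and 5 lower. Cdkn1c (p57) rose to 11.5 ± 1.26 CPM in differentiation libraries, against 1.98 ± 0.417 CPM in NSC-medium libraries (log2 2.54 ± 0.137), and Cdkn1b (p27) to 135 ± 8.22 against 108 ± 2.63 CPM (0.33). Cdkn1a (p21), a p53 and growth factor target, fell to 117 CPM in differentiation libraries, against 370 CPM in NSC-medium libraries (-1.66). Cdkn2b and Cdkn2c fell by 1.46 and 1.02.

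Promoter letters were searched for motifs known from cell cycle and sterol genes, in the 250 bases before each RefSeq gene start (build GRCm38.p6) on both strands. An E2F-type motif (TTCCCGC or TTGGCGC) was in 10 of 28 DNA replication genes with a window (35.7%), against 11.1% of the 12175 tested genes with one. The share was 20.8% in ribosome biogenesis, 18.8% in cholesterol synthesis, 15.8% in astrocyte and quiescent stem cell and 14.8% in mitosis genes. A CHR-type motif (TTTGAA or TTCGAA), known from mitotic genes, was in 10 of 27 mitosis genes (37%), against 14.7% of all tested genes. It was in 21.4% of DNA replication, 16.7% of ribosome biogenesis, 12.5% of cholesterol synthesis and 10.5% of astrocyte and quiescent stem cell genes. The CCAAT box was in 22 of 27 mitosis genes (81.5%) and in all 16 cholesterol synthesis genes with a window, against 39.9% of all tested genes and 6 of 24 ribosome biogenesis genes (25%), which fell too. A sterol-response-type motif (TCACNCCAC) was in 1 of 16 cholesterol synthesis genes (6.25%) and in 3 of 19 astrocyte and quiescent stem cell genes (15.8%), a list that mostly rose, against 1.31% of all tested genes. Among all genes that fell at least 2-fold the CCAAT share was 41.7% and among those that rose at least 2-fold 39.2%. A match is a run of letters, not a measured binding site. Below are 4 stretches of 120 bases that end at the base before the gene start, with matches in capitals (ATTGG is CCAAT on the other strand). They are shown because they place the motifs in genes of 3 lists that fell, and were chosen after the search because they hold matches: Mcm6 (replicative helicase, chr1:128359706-128359825, minus strand) with 2 E2F-type and 2 CCAAT matches, Cdk1 (mitotic kinase, chr10:69352913-69353032, minus strand) with 2 CHR-type and 2 CCAAT matches, Cdc20 (anaphase-promoting complex activator, chr4:118437344-118437463, minus strand) with 1 CHR-type and 2 CCAAT matches, and Idi1 (isoprenoid synthesis, chr13:8885486-8885605, plus strand) with 2 CCAAT matches.
Mcm6: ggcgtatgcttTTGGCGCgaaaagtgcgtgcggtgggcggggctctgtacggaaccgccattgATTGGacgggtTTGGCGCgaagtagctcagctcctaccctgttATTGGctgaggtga
Cdk1: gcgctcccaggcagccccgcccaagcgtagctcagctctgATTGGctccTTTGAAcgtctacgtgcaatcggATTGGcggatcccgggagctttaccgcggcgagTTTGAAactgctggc
Cdc20: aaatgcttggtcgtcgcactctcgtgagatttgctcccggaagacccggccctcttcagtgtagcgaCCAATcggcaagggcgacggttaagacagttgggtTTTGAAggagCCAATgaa
Idi1: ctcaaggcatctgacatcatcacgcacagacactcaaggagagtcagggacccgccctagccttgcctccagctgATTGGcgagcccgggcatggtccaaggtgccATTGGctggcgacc
These 4 genes fell by 4.97 (Mcm6), 5.22 (Cdk1), 5.17 (Cdc20) and 1.98 (Idi1) on the log2 scale.

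**Figure D2:**
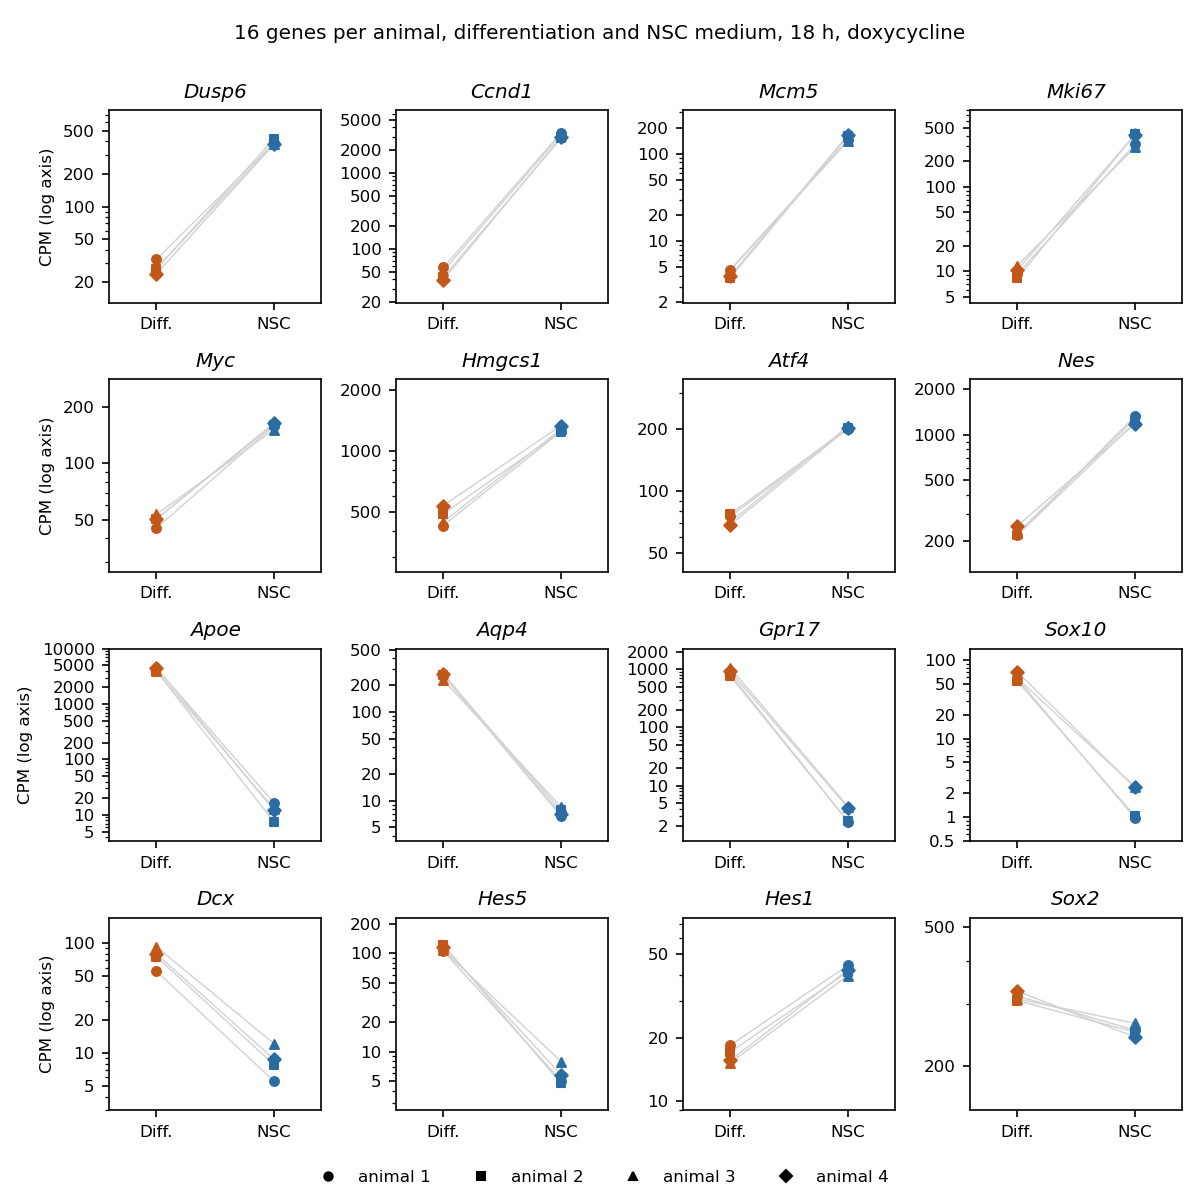
CPM on log axes (y) of 16 genes in differentiation (left, orange) and NSC-medium (right, blue) libraries at 18 h with doxycycline, 1 symbol per animal with grey lines joining libraries of the same animal. For every gene shown the 4 differentiation values lie on 1 side of the 4 NSC-medium values, from Ccnd1 (47.7 against 3090 CPM on average) to Sox2 (316 against 252 CPM).

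Biosynthetic programmes were lower in differentiation medium. Myc, the growth-promoting transcription factor that the cassette also encodes, had 45.4, 50.8, 53.7 and 50.7 CPM in differentiation libraries against 158, 161, 151 and 164 CPM in NSC-medium libraries (log2 -1.66 ± 0.0499). All 28 ribosome biogenesis genes, many of them known Myc targets, fell, 23 at least 2-fold, with a median of -1.41. The largest changes were in the nucleolar small ribonucleoprotein genes Nop58 (-2.13), Dkc1 (-2.11), Nop56 (-2.02) and Fbl (-1.96). Of 11 genes of the wider MYC network 5 rose and 3 fell: the MYC antagonist Mxd1 rose by 2.05 and Mycl by 2.58, while Mxd3 fell by 1.64 and Mlx by 0.49.

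All 23 tested cholesterol synthesis genes fell, 16 of them at least 2-fold, with a median of -1.61. Hmgcs1, which makes the first committed intermediate of the pathway, had 428, 489, 446 and 537 CPM in differentiation libraries against 1246, 1243, 1279 and 1331 CPM in NSC-medium libraries (log2 -1.43 ± 0.0671). The farnesyl diphosphate synthase gene Fdps fell by 2.53, Hsd17b7 by 2.08 and Idi1 by 1.98 on the log2 scale. In fatty acid synthesis 10 of 13 genes fell and 2 rose. The stearoyl-CoA desaturase gene Scd1 fell by 1.78 and the elongase gene Elovl6 by 1.27, and the desaturase genes Fads2 and Fads1 rose by 1.41 and 0.79.

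Genes of the integrated stress response and of serine and folate metabolism fell in 18 of 20 cases (median -1.20). Atf4, the transcription factor at the centre of that response, had 75.5, 77.7, 70.9 and 68.7 CPM in differentiation libraries against 201, 203, 207 and 203 CPM in NSC-medium libraries (log2 -1.47 ± 0.0415). Mthfd2, a mitochondrial folate enzyme and ATF4 target, fell by 4.94, Chac1 by 3.37, Stc2 by 2.31 and the asparagine synthetase gene Asns by 2.25. The opposite was measured for Ddit4 (0.26) and Phgdh (0.22). Endoplasmic reticulum chaperones fell in 14 of 17 cases by small amounts (median -0.48), led by Pdia6 (-1.02), while Dnajb9 rose by 0.86.

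Glycolysis and hypoxia genes fell in 20 of 22 cases and none rose (median -1.01). Ldha, lactate dehydrogenase A, fell to 132 CPM in differentiation libraries, against 841 CPM in NSC-medium libraries (log2 -2.68), Hk2 by 3.53 and Pfkl by 1.66. Respiratory chain genes moved little: 11 of 19 fell, 3 rose and the median was -0.12. Of these Cycs, cytochrome c, fell by 2.21 and Atp5b by 0.70, and Cox4i1 rose by 0.48.

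Genes of lipid use and of the lysosome moved the other way. Of 16 genes of fatty acid oxidation and ketone synthesis 15 rose and 1 did not pass (median 0.65). The carnitine palmitoyltransferase gene Cpt1a rose to 162 CPM in differentiation libraries, against 74.7 CPM in NSC-medium libraries (1.12), and Acaa2 rose by 1.14. Of 22 lysosome and autophagy genes 21 rose and none fell (median 0.90): Map1lc3b, the autophagosome protein LC3B, rose by 1.62, the protease gene Ctsb by 1.6 and the cholesterol transporter gene Npc1 by 1.5. FoxO factors are active when insulin and growth factor signalling is low. Of 14 genes listed as FoxO targets or insulin signalling genes 8 rose and 4 fell (median 1.0), and FoxO activity was not tested. Txnip led, at 165 CPM in differentiation libraries against 4.41 CPM in NSC-medium libraries (5.22), with Klf15 (3.31), the PI3K inhibitor gene Pik3ip1 (2.17) and Sesn3 (1.83). Igf1r and Irs2 fell by 0.52 and 0.23.

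Astrocyte and quiescent stem cell genes rose in 22 of 26 cases (20 at least 2-fold, median 2.20). Apoe, the main lipoprotein of astrocytes, had 4452, 3955, 3890 and 4542 CPM in differentiation libraries against 16.6, 7.42, 12.9 and 12.1 CPM in NSC-medium libraries (log2 8.43 ± 0.296, adjusted p = 5.38e-08). The lowest differentiation value was far above the highest NSC-medium value. Aqp4, the astrocyte water channel, had 228 to 268 CPM against 6.74 to 8.54 CPM (5.07). Ndrg2 rose to 1267 ± 64.8 CPM in differentiation libraries, against 6.19 ± 1.07 CPM in NSC-medium libraries (7.68). Gfap, the astrocyte filament protein, was still low at 17.4 ± 3.97 CPM against 1.41 ± 0.329 CPM (3.63), with animal 2 the lowest in both media. Of the list 2 fell: Thbs4, a thrombospondin at 0.173 ± 0.0854 CPM against 0.629 ± 0.313 CPM (-1.84), and the factor gene Nfib (-0.62).

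Most oligodendrocyte lineage genes rose. Of 16 precursor genes 13 rose and 2 fell (median 2.75), and of 12 tested myelin genes 10 rose and none fell (median 3.20), with 3 further myelin genes too low to test. Gpr17, a receptor of committed oligodendrocyte precursors, had 829, 762, 1052 and 917 CPM in differentiation libraries against 2.4, 2.42, 4.37 and 4.16 CPM in NSC-medium libraries (log2 8.05 ± 0.278). Animals 3 and 4 were above animals 1 and 2 in both media. Sox10, a transcription factor of the lineage, had 53.8 to 70.8 CPM against 0.974 to 2.43 CPM (5.12), again with animals 3 and 4 highest in both media. Pdgfra, the receptor that marks precursors, rose to 103 ± 9.96 CPM in differentiation libraries, against 5.33 ± 1.46 CPM in NSC-medium libraries (4.26). The extracellular C1ql1 rose by 5.44, the choline phosphodiesterase gene Enpp6 by 5.60 and the sialidase gene Neu4, with 53 counts in all NSC-medium libraries, to 20.5 CPM. Olig2 was the exception among lineage factors, at 761 ± 14.7 CPM against 895 ± 36.3 CPM (log2 -0.23, adjusted p = 0.000307), whereas 9 of 11 such factors rose, 4 of them at least 2-fold (list median 0.74), among them Zfp488 (4.72), Myrf (3.56) and Sox8 (1.65). Of myelin genes, Mbp, myelin basic protein, rose to 9.8 ± 1.77 CPM in differentiation libraries, against 0.78 ± 0.318 CPM in NSC-medium libraries (3.64), Gjc3 by 4.33 and Gal3st1 by 4.30.

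Neuroblast genes changed less evenly, with 11 of 19 higher and 5 lower (median 0.47). Dcx, a microtubule protein of migrating neuroblasts, had 55.7, 75.5, 92.8 and 80.2 CPM in differentiation libraries against 5.51, 7.81, 12.2 and 8.75 CPM in NSC-medium libraries (log2 3.15 ± 0.278). Animal 3 was the highest and animal 1 the lowest in both media. Dlx2, a homeobox factor of the interneuron lineage, had 7.39, 11.9, 5.03 and 11.1 CPM against 1.9, 1.52, 1.33 and 2.17 CPM (2.35 ± 0.302), and the neuronal tubulin gene Tubb3 rose by 1.89 and Gad1, which makes GABA, by 3.14. Meis2 fell by 0.29. Of 18 synaptic and channel genes 6 rose and 8 fell: Scn2a rose by 0.94, and Gabra2 fell by 1.32 and Snap25 by 1.17.

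Stem cell genes did not fall as a group. Nes, the intermediate filament of neural progenitors, had 218, 218, 224 and 250 CPM in differentiation libraries against 1328, 1208, 1275 and 1181 CPM in NSC-medium libraries (log2 -2.46 ± 0.0604), and Vim fell by 1.11. Against this, 8 of 10 stem cell markers rose, among them Fabp7 (1.25), Msi1 (1.44) and Slc1a3 (1.20). Of 12 genes listed as activated progenitor markers 8 rose and 4 fell, 3 of them at least 2-fold (median 0.66). Among these the fetal chromatin factor gene Hmga2 fell by 5.72, and Sox4 rose to 1339 CPM in differentiation libraries, against 325 CPM in NSC-medium libraries (2.04), and Rhbdl3 by 3.20.

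The Notch pathway, which maintains stem cells through lateral signalling, had 13 of 18 genes higher and 4 lower (median 0.91). Its effectors diverged: Hes5 had 105, 122, 107 and 116 CPM in differentiation libraries against 5.08, 4.74, 7.92 and 5.81 CPM in NSC-medium libraries (log2 4.25 ± 0.159), while Hes1 had 18.4, 17.1, 15.2 and 15.6 CPM against 44.3, 41.3, 39.6 and 42.1 CPM (-1.33 ± 0.0639). Neither pair of groups overlapped. Ligand genes diverged likewise, with Dll3 and Dll1 higher by 2.98 and 2.23 and Jag1 lower by 1.91, and the Notch glycosyltransferase gene Mfng rose by 2.19. In the BMP pathway 10 of 18 tested genes rose and 5 fell. Id4 rose to 49 CPM in differentiation libraries, against 2.12 CPM in NSC-medium libraries (4.54), whereas Id1 fell to 22.3 ± 2.44 against 58.1 ± 6.81 CPM (-1.38) and Id3 to 88.8 ± 6.77 against 152 ± 4.59 CPM (-0.78). The BMP antagonist gene Chrdl1 fell by 2.41, Smad5 fell by 0.67 and the receptor gene Bmpr1b rose by 1.02. Wnt pathway genes rose in 9 of 15 cases and fell in 4, with Rnf43 (2.82), Fzd9 (2.44) and Tcf7l1 (2.02) higher and Fzd1 (-2.75), Tcf7 (-1.68) and Axin2 (-0.33) lower.

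Matrix and adhesion genes fell in 20 of 27 cases (median -1.10). Tnc, tenascin C, fell to 124 CPM in differentiation libraries, against 1745 CPM in NSC-medium libraries (log2 -3.82), the collagen genes Col6a2 and Col18a1 by 4.40 and 3.29 and Fn1, fibronectin, by 3.72. The proteoglycan genes Bcan and Vcan rose by 2.31 and 1.61. Of 15 contractile actin genes 10 fell and 4 rose, with Acta2 lower by 4.09, Tpm4 by 1.65 and Tagln by 1.15, and Csrp1 higher by 1.61, Myl9 by 0.71 and Cnn2 by 0.39. Targets and partners of YAP and TEAD fell in 9 of 13 cases, among them Tead1 (-1.72), Crim1 (-1.38) and Amotl1 (-1.27). Amotl2 (3.18) and Lats2 (0.81), of the same list, were higher. In the apoptosis and p53 list 6 of 16 rose and 9 fell. Bmf, a death-promoting BH3-only gene, rose by 3.30 and Bcl2l11 (Bim) by 0.99, and the survival genes Bcl2l1 and Mcl1 fell by 1.43 and 0.81, as did the p53 targets Aen and Ccng1 by 1.28 and 0.93. Interferon and antigen presentation genes rose in 6 of 17 cases and fell in 4, with H2-D1 (0.64), Irf9 (0.55) and Stat2 (0.30) higher and Ifitm3 (-1.55) and H2-K1 (-1.20) lower.

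The largest changes not yet described were as follows. Among genes that rose, Gpr17, Apoe and Ndrg2 were joined by Lims2, at 113 ± 13.1 CPM in differentiation libraries against 0.624 ± 0.272 CPM in NSC-medium libraries (log2 7.49), Mmd2 at 472 ± 23.4 against 3.6 ± 0.799 CPM (7.03) and the secreted phospholipase gene Pla2g7 at 367 ± 19.3 against 4 ± 1.42 CPM (6.51). Gpr17 lies within Lims2 on the opposite strand, and whether counting used strand is not given. Reads of Gpr17 may therefore be counted for Lims2, which was not tested. In differentiation libraries of animals 1 to 4 Lims2 had 108, 99.3, 131 and 113 CPM, and Gpr17 829, 762, 1052 and 917 CPM. Chgb, a chromogranin, was at 212 ± 13.6 CPM against 3.02 ± 0.384 CPM (6.13). The genes Slc30a10, Bmp3, Fa2h (a member of the myelin list) and Mpped1 reached means of 13.5 to 15.7 CPM in differentiation libraries, with 26, 36, 38 and 75 counts in all NSC-medium libraries. Fa2h makes hydroxylated myelin lipids and Bmp3 is a ligand of the BMP family. Among genes that fell, Spp1, osteopontin, held 31 counts in all differentiation libraries against 5553 in NSC-medium libraries (log2 -7.53). Adamts14, a matrix protease, was at 0.495 ± 0.109 CPM against 71.8 ± 12.2 CPM (-7.18) and Cd93 at 1.13 ± 0.211 against 103 ± 12.8 CPM (-6.52). Rgs8, a regulator of G protein signalling, had 0.5 to 0.562 CPM in differentiation libraries against 30 to 76.5 CPM in NSC-medium libraries (-6.61), and the serotonin receptor gene Htr1b 0.256 to 0.547 against 20.5 to 35 CPM (-6.16).

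Cassette factors and their activator were not higher in differentiation medium, Sox2 aside. Reads on the coding parts of the 4 factors are counted together for cassette and endogenous genes. Features named for 2A peptides, the linkers that join such factors, held almost no reads: P2A had 0 counts in all 4 differentiation libraries against 2 in NSC-medium libraries, T2A 0 against 0 and E2A 2 against 0, with at most 4 in any of 32 libraries. Pou5f1 (Oct4) was near the lower limit, at 0.171 to 0.368 CPM in differentiation libraries against 0.205 to 0.47 CPM in NSC-medium libraries, and the groups overlapped (log2 -0.54 ± 0.343, adjusted p = 0.164). Klf4 had 2.38, 3.25, 2.46 and 2.43 CPM against 8.62, 8.27, 7.92 and 9.12 CPM (-1.69 ± 0.108). Sox2, also a stem cell gene in its own right, rose by 0.32 ± 0.0393. M2rtTA, the feature that counts the transactivator, had 101, 98.5, 89.7 and 89.2 CPM in differentiation libraries against 218.1, 206.4, 210.4 and 223.1 CPM in NSC-medium libraries, 2.27-fold lower (-1.18 ± 0.047, adjusted p = 3.35e-11). Without doxycycline M2rtTA was lower as well (-1.36), and the difference between these effects did not pass (0.17 ± 0.069, adjusted p = 0.415). Of 11 pluripotency genes 8 were too low to test. Nanog rose to 0.694 ± 0.0878 CPM in differentiation libraries, against 0.168 ± 0.0797 CPM in NSC-medium libraries (2.04), and Esrrb fell to 1.24 ± 0.227 against 3.43 ± 0.511 CPM (-1.46).

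**Figure D3:**
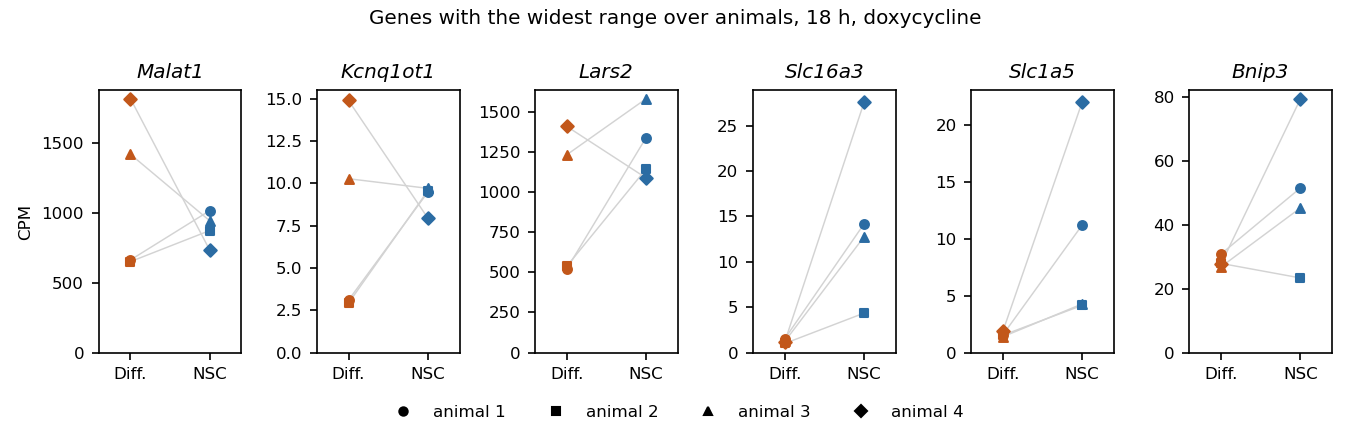
CPM (y, from 0) of the 6 genes whose difference between media varied most over animals, in differentiation (left, orange) and NSC-medium (right, blue) libraries at 18 h with doxycycline, 1 symbol per animal. Malat1, Kcnq1ot1 and Lars2 vary among differentiation libraries, and Slc16a3, Slc1a5 and Bnip3 among NSC-medium libraries.

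A few genes differed more between animals than the rest. The long noncoding RNA Malat1 had 662, 650, 1417 and 1815 CPM in the differentiation libraries of animals 1 to 4, against 1014, 872, 942 and 732 CPM in NSC-medium libraries. Animals 3 and 4 were above animals 1 and 2 in differentiation medium, and the groups overlapped (log2 0.35 ± 0.381, adjusted p = 0.423). Kcnq1ot1, an imprinted noncoding RNA, had 3.1, 2.93, 10.3 and 14.9 CPM against 9.47, 9.55, 9.7 and 7.95 CPM, and Lars2, the mitochondrial leucyl-tRNA synthetase gene, 520, 537, 1232 and 1410 CPM against 1338, 1143, 1581 and 1089 CPM. Both had the split of Malat1 in differentiation libraries, which is also the split by labelled sex. NSC-medium libraries of the same animals did not have this split for any of these genes. Sex, animal and single libraries cannot be told apart as its source. For the lactate exporter gene Slc16a3 the spread was in NSC medium, with 1.01 to 1.53 CPM in differentiation libraries against 14.2, 4.35, 12.8 and 27.6 CPM (-3.58 ± 0.598, adjusted p = 0.00117). The glutamine transporter gene Slc1a5 had 1.4 to 1.87 CPM against 11.2, 4.16, 4.28 and 22 CPM (-2.72 ± 0.639). Bnip3, a hypoxia target, had 26.8 to 30.8 CPM against 51.5, 23.4, 45.2 and 79.3 CPM and did not pass (-0.82 ± 0.351, adjusted p = 0.0686), with animal 4 highest and animal 2 lowest in NSC medium as for Slc16a3. Without the NSC-medium library of animal 2 it passed (-1.08).

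The medium effect at 18 h was set against the same contrast in the same animals at 6 and 48 h, each with its own NSC-medium libraries. At 6 h 80.7% of tested genes passed (41.4% higher, 39.3% lower) and at 48 h 76.9% (39.8% higher, 37.1% lower). Of the genes higher at 18 h, 69.6% were also higher at 6 h and 73.8% at 48 h, which is 69.9% of the 6 h list and 76.6% of the 48 h list, and of those lower 69.5% and 73.6%. Opposite calls were made at 6 h for 773 (10.9%) of the higher and 1020 (14.9%) of the lower genes, and at 48 h for 480 (6.79%) and 548 (8.03%). The test of the difference between effects called 11564 of 17709 genes (65.3%) for 18 h against 6 h and 9831 of 17738 (55.4%) for 18 h against 48 h. Cell cycle lists had lower medians at 18 h than at 6 h. The medians at 6, 18 and 48 h were 0.38, -4.87 and -6.09 for mitosis and -0.18, -3.05 and -2.81 for DNA replication. All 33 mitosis genes and all 35 replication genes had a lower effect at 18 h than at 6 h (32.6% of all genes did), and 31 mitosis genes had a less negative effect at 18 h than at 48 h (26.9% of all genes had a higher one). Mki67 averaged 508, 9.76 and 4.71 CPM in differentiation libraries at 6, 18 and 48 h, against 273, 365 and 641 CPM in NSC-medium libraries (scaled over 32 libraries). Over time it was lower in differentiation medium and higher in NSC medium, and levels over time were not tested.

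Ribosome biogenesis and cholesterol synthesis ran the other way, with medians of -2.51, -1.41 and -0.53 and of -2.31, -1.61 and -0.86 at 6, 18 and 48 h. Of the 28 ribosome biogenesis genes 25 had a less negative effect at 18 h than at 6 h and 27 a more negative one than at 48 h, against 32.7% and 28.5% of all genes tested. Myc did the same, at 18.5, 49.5 and 93.7 CPM in differentiation libraries at the 3 times, against 199, 160 and 144 CPM in NSC-medium libraries (18 h minus 6 h effect 1.75 ± 0.0638, 18 h minus 48 h effect -1.07 ± 0.0898). Glycolysis genes had medians of 0.23, -1.01 and -1.18. The Notch list had medians of 2.22, 0.91 and 0.14, and Hes5 an effect smaller than at 6 h (difference -2.05 ± 0.238) and larger than at 48 h (2.64 ± 0.166).

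**Figure D4:**
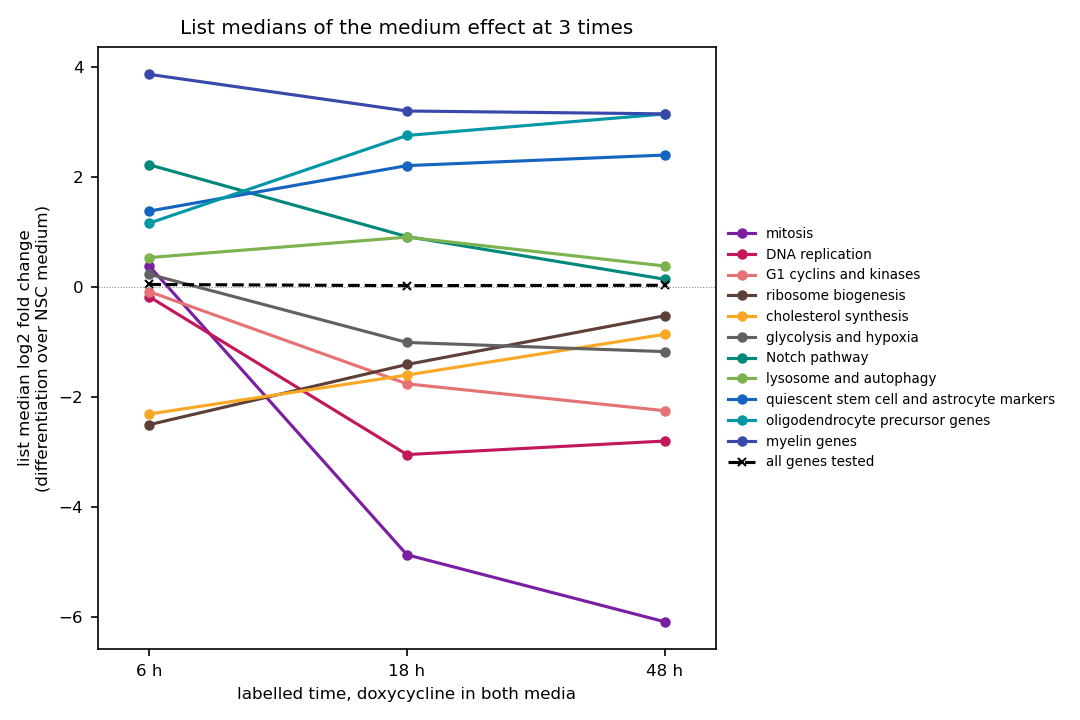
Median log2 fold change (y axis, differentiation over NSC medium, doxycycline in both) of 11 gene lists and of all genes tested (dashed) at 6, 18 and 48 h (x axis, equally spaced). Mitosis has medians of 0.38, -4.87 and -6.09 and ribosome biogenesis of -2.51, -1.41 and -0.53 at the 3 times.

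Lineage genes kept different times. Apoe had a larger effect at 18 h than at 6 h (difference 4.83 ± 0.501) and than at 48 h (1.96 ± 0.236), with 349, 4156 and 4730 CPM in differentiation libraries and 29.2, 12.4 and 54.7 CPM in NSC-medium libraries at 6, 18 and 48 h. Gfap and Mbp were far from their 48 h levels: Gfap was at 2.63, 17.2 and 528 CPM and Mbp at 5.64, 9.68 and 204 CPM in differentiation libraries at 6, 18 and 48 h (18 h minus 48 h effect -5.14 ± 0.705 and -3.02 ± 0.642). Dlx2 rose at 18 h (2.35) and had effects of -1.79 at 6 h and 0.54 at 48 h. For Dcx neither difference passed (adjusted p = 0.874 and 0.352).

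By size of the difference, effects at 18 h exceeded those at 6 h most in Nfatc2 (5.43), Scg2 (5.32), Pla2g7 (5.23), the alarmin gene Il33 (5.18) and Ngef (4.98), and lay below them most in Angptl2 (-6.80), Esco2 (-6.74), Aurkb (-6.68), the mitotic kinesin gene Kif14 (-6.64) and Pclaf (-6.52). Nfatc2 was itself close in both media at 18 h, at 1.46 ± 0.489 CPM in differentiation libraries against 1.13 ± 0.366 CPM in NSC-medium libraries (adjusted p = 0.23), after an effect of -5.06 at 6 h. Scg2, a secretogranin, had effects of -4.63, 0.69 and 3.89 at 6, 18 and 48 h. Against 48 h the largest positive differences were in Bmp3 (4.34), the monooxygenase gene Fmo1 (4.18), the matrix gene Fbln2 (4.07), Arhgef3 (3.99) and Gbp9 (3.92), and the largest negative ones in S100a6 (-6.20), the microtubule protein gene Map1b (-5.32), Gfap, the chaperone gene Hspb8 (-5.05) and the GABA receptor gene Gabrg3 (-3.87). Map1b fell at 18 h (14.4 to 21.1 CPM in differentiation libraries against 208 to 270 CPM in NSC-medium libraries) and had an effect of 1.61 at 48 h.

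Few differences between the medium effects with and without doxycycline were detectable at 18 h. Without doxycycline 82% of tested genes passed (41.5% higher, 40.5% lower). Of the genes higher with doxycycline 92.3% were also higher without it, and of those lower 93.6%, with 5 and 2 genes called in opposite directions. In the test of the difference between effects 1768 genes had an unadjusted p under 0.05, a larger share than the 0.05 expected with no difference. After adjustment it called 1 of 17657 genes (0.00566%). That gene, Sorl1, a sorting receptor for the amyloid precursor protein, had 40.6, 37.3, 38.7 and 41.2 CPM in differentiation libraries with doxycycline against 19.1, 17.6, 16.3 and 18.2 CPM in NSC-medium libraries with doxycycline. Without doxycycline it averaged 42.9 ± 1.29 CPM against 11.7 ± 1.36 CPM, so the effect was 1.15 with doxycycline and 1.90 without (difference -0.76, adjusted p = 0.00481). With the animal as a block 18 genes passed (0.102%; 13 higher with doxycycline, 5 lower), and DESeq2 called 119. Leaving out animal 1 or animal 2 left 0 calls and leaving out animal 4 gave 14. The count is therefore sensitive to the method, and genes below the threshold are not shown to act alike.

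**Figure D5:**
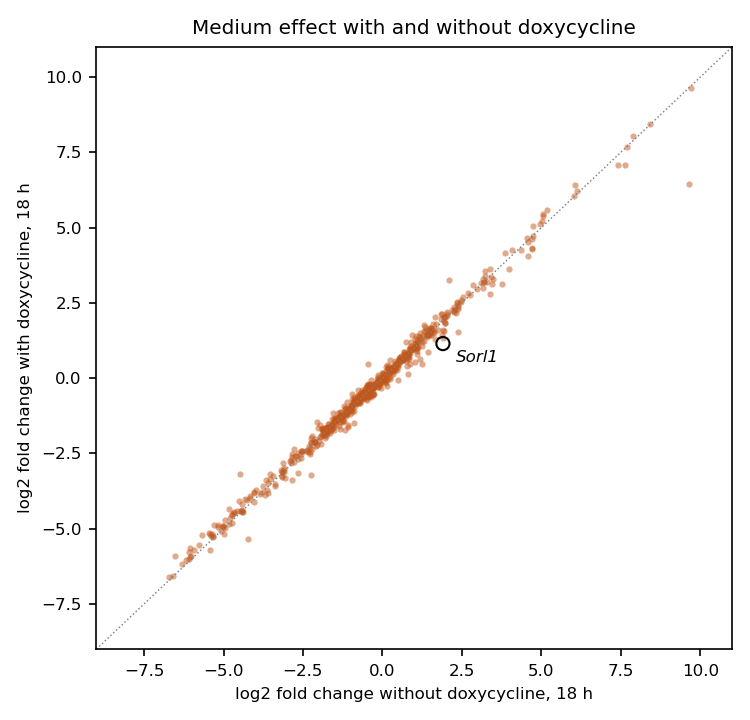
Log2 fold change between media at 18 h with doxycycline (y) against that without (x) for the 619 list members tested in both, 1 point per gene, with the line of equal effects dotted. Of these 615 lie within 1 log2 unit of the line, and Sorl1 (circled, no list member) is at 1.90 without and 1.15 with doxycycline.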

How the data were processed

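RNA of 8 libraries was compared at 18 h, with 24 further libraries of the same animals for the 6 h, 48 h and untreated contrasts. Per the submitters' processing notes, the build was mm10 and the tools named are STAR 2.7.10b, Subread, SAMtools, DESeq2 1.40.1 and Trim Galore 0.6.6, with no order given. The authors deposited raw counts per gene and a table of log2 values after a variance-stabilising transformation; whether counting used strand is not given in the sources used here, so genes that overlap on opposite strands are uncertain. The count table had 31057 features, of which 31011 were matched to GENCODE M21 names.

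From the counts, edgeR 4.0.16 (R 4.3.3) was run with TMM scaling, its filter on low counts and the quasi-likelihood test, with Benjamini-Hochberg adjustment over all genes tested and a threshold of 0.05. Differences between medium effects were interaction terms. CPM were scaled over the 8 libraries unless stated. The fits were tested on simulated data in which a small part of genes changed, by at most 2-fold, with no difference between animals. That check does not cover a change of most genes, as found here, or the pairing. Alternatives were DESeq2 1.42.0, limma 3.58.1 on the deposited log2 values, other scalings and filters, a test against a fold of 1.5, the animal as a block, and leaving out libraries or animals. Replicate numbers name the animal in the labels. Same-animal libraries deviated together, with correlations of 0.581 to 0.599. Different animals of the same labelled sex had 0.396 to 0.464, and animals of different sex -0.562 to -0.474. Same-animal values were thus the highest, so the numbers pair the samples, though much of the contrast is the split by labelled sex. The fit without the block is the main one.

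Named genes were the core genes, the 15 largest called changes in each direction (mean of at least 5 CPM, groups not overlapping, no predicted genes), up to 5 called differences between effects in each direction, the 6 genes with the widest range over animals and, in each list, up to 4 largest called changes and up to 2 in the other direction. Rb1, Msi1, Slc1a3, Nanog, Esrrb, Mcm6, Cdk1, Cdc20, Thbs4, Foxj1, Dnah11, Camk2a, Slc17a6 and Sst were named after their values were seen. Some genes that the rule names are not reported here. Members and lists were chosen with earlier results of these data known. Each library is 1 culture of 1 animal, and depth of 78.7 to 103.8 M counts leaves genes with few counts the least precise. In the 8 libraries the value 2 was more frequent than the value 1 (9329 against 2518), so counts may hold both reads of a pair. Depth in fragments may then be lower than the counts printed here, and halved counts were run as an alternative. Values after ± are the SD over the 4 libraries of a group for CPM and shares, and the standard error of the fit for log2 values.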

Additional observations from a re-analysis of the deposited data

Results flagged for a closer look

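Of 164 groups of 4 libraries examined for single values, 11 held a library far from the other 3, where chance flags about 1 group in 20. In differentiation libraries animal 3 was lowest for Pla2g7 (338 CPM, the others 376 to 378), Egfr (486 CPM, the others 568 to 582) and Fos (9.66 CPM, the others 11.7 to 12.1), and highest for Fa2h (18.1 CPM, the others 13.5 to 14.2). Animal 2 was highest for Klf4 (3.25 CPM, the others 2.38 to 2.46). Animal 1 was highest for Mpped1 (20.8 CPM, the others 13.2 to 14.5), and animal 4 for Arc (1.06 CPM, the others 0.94 to 0.952) and Pdgfra (118 CPM, the others 97.3 to 98.7). In NSC-medium libraries animal 4 was lowest for Kcnq1ot1 (7.95 CPM, the others 9.48 to 9.7), animal 1 was lowest for Pou5f1 (0.205 CPM, the others 0.455 to 0.47) and animal 2 was highest for Arc (107 CPM, the others 91 to 93.3).

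The test of the difference between effects, an interaction term in edgeR's quasi-likelihood fit, called 11564 genes for 18 h against 6 h, 9831 for 18 h against 48 h and 1 with against without doxycycline. The largest positive differences from 6 h on the log2 scale were in Nfatc2 (5.43), Scg2 (5.32), Pla2g7 (5.23), Il33 (5.18) and Ngef (4.98), and the largest negative ones in Angptl2 (-6.80), Esco2 (-6.74), Aurkb (-6.68), Kif14 (-6.64) and Pclaf (-6.52). From 48 h the largest positive ones were in Bmp3 (4.34), Fmo1 (4.18), Fbln2 (4.07), Arhgef3 (3.99) and Gbp9 (3.92), and the largest negative ones in S100a6 (-6.20), Map1b (-5.32), Gfap (-5.14), Hspb8 (-5.05) and Gabrg3 (-3.87). Sorl1 differed by -0.76 with against without doxycycline.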

How the results depend on the processing

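For the medium contrast at 18 h, DESeq2, other scalings, no filter, halved counts and limma called 13518 to 14538 genes, and in each of these 96.6% or more of the 13901 calls were made again with 0 in the opposite direction. Leaving out 1 library gave 13660 to 13783 calls and leaving out 1 animal 13323 to 13508. On the deposited log2 values 1072 genes were higher and 1291 lower at least 2-fold, the scale being compressed by its construction. The test against a fold of 1.5 called 7330 genes (3851 higher, 3479 lower), as its null is wider. With the animal as a block (the pairing), the medium contrast called 13999 genes, the difference from 6 h 11877 and that from 48 h 10382; for 229 named genes the block lost 0 calls, gained 0 in the medium contrast, 10 in the difference from 6 h (Gpr17 and Sox10 among them), 6 in that from 48 h (Ccnd1 and Ccnd2 among them) and 2 in the doxycycline difference, and it moved no other count by over 1.5 times, the doxycycline difference aside, where 18 genes passed (13 higher, 5 lower). DESeq2 called 119 there (95 higher, 24 lower; 2023 at an unadjusted p under 0.05), and leaving out an animal gave 0 to 14 (0 to 12 higher, 0 to 2 lower; 1554 and 945 at an unadjusted p under 0.05 without animals 1 and 2); the cause was not tested. Sorl1 did not pass without animal 1 (-0.77, adjusted p = 0.0719) or animal 2 (-0.78, adjusted p = 0.237). Leaving out an animal gave 10541 to 10893 calls for the difference from 6 h and 8481 to 9066 for that from 48 h. For 229 named genes in 20 settings, 46 values lost their call (33 of them in the fold test), 4 gained one and 0 reversed. Genes with few counts in 1 medium, such as Spp1, limit what depth can show of a fold.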
